A study of Danio rerio with 6 samples.

Results

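The melanopsins are the 5 zebrafish genes opn4a, opn4b, opn4.1, opn4xa and opn4xb, taken by symbol from a table of 14781 genes, and all 5 were found in it. RNA was measured in the eyes of 6 larvae at 5 days post fertilization (dpf), 3 wild type (WT) and 3 homozygous for the stl888 allele of samd7 (samd7-/-). Both genotypes came from intercrosses of heterozygous parents, so wild types and mutants shared parents of 1 genotype, and only 1 mutant allele was studied. Each library held the eyes of 1 larva, genotyped from the rear of its body. The mutation is present in the whole animal, so a difference in the eye need not arise in the cells that make samd7, a photoreceptor gene whose product belongs to the Polycomb chromatin regulators.

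Melanopsins are opsins of the inner retina and brain that use retinal to sense light. In mammals a single melanopsin gene marks the intrinsically photosensitive ganglion cells, which set the circadian clock and the pupil. Fish carry a larger set in 2 lineages, a mammalian-like one (opn4a, opn4b and opn4.1) and a Xenopus-like one (opn4xa and opn4xb), with transcripts known from ganglion, amacrine, bipolar and horizontal cells. Light-activated melanopsin couples to G proteins of the Gq class, which turn on phospholipase C and open TRPC channels, as worked out mostly in the mouse. Rods and cones use another route, through transducin and cyclic GMP.

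The libraries held between 23185755 and 26672265 reads assigned to genes, and the 5 melanopsins together 19111 reads over all 6. Values below are normalized read counts, a read count divided by a size factor of the library. The samd7 transcript stood at 1813, 1587 and 1931 in WT 1, 2 and 3 and at 4691, 4070 and 4479 in samd7-/- 1, 2 and 3, a rise (log2 fold change 1.31, standard error (SE) 0.12, limma adjusted p = 0.0049). Because the nature of the allele is not in the labels, this says nothing for or against the genotypes. The tissue label held: abundant transcripts included opn1sw1 and opn1sw2 of cones, rho and gnat1 of rods, and crybb1 and cryba1b of the lens. Others were krt4 and krtt1c19e of the surface, glula of Muller glia, tyrp1b of pigment cells, and gnao1b and vsx1 of bipolar cells. Also abundant were calb2a and ompa of horizontal cells, slc6a1a and slc6a1b of amacrine cells, and isl1 and rbpms2b of ganglion cells. isl1 is on the bipolar list too. rlbp1b is on both the Muller glia and the pigment cell lists. It ran from 18089 to 81390 over the libraries and tyrp1b from 14612 to 56691, while glula ran from 77180 to 91988. The muscle genes mylpfa and atp2a1, irbp and otx5 from the pineal list, which photoreceptors also express, and gbx2 and eomesa from the brain list were found too.

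Of these libraries, 2 stood apart in ways that touch the melanopsins. samd7-/- 2 carried transcripts of the hypothalamus: otpb was at 214 there against at most 10.0 in the other 5 libraries, oxt at 177 against at most 1.11, and otpa at 103 against at most 7.78. opn4a is known from otpa-expressing cells of the zebrafish preoptic area. WT 1 had the lowest summed level of the 26 ganglion cell markers (35108 against 40557 to 44784 in the other 5) and the highest of the 18 muscle markers (121310 against 34750 to 92227). Its summed level of light and clock output genes was also the lowest (18786 against 20695 to 25665). What part either had in the values below was not tested. The values of each melanopsin and their shares are given with and without these libraries. So are the ratio of opn4xb to opn4.1 and the ratios to ganglion cell markers and to the rhodopsins rho and exorh.

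No melanopsin passed the test between genotypes. At an adjusted p under 0.05 (limma on log2(value + 1)), 0 of 5 were called, beside 0.301% of the 11959 genes tested. At an unadjusted p under 0.05 there was 1, opn4xa, beside 6.33% of all tested genes. DESeq2 called 0 (0.679% of all genes) and edgeR called 0 (0.284%). The genotypes overlapped for every one of the 5, beside 13.1% of tested genes without overlap. The median log2 fold change of the 5 was 0.14, and that of all tested genes 0.00.

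**Figure D1:**
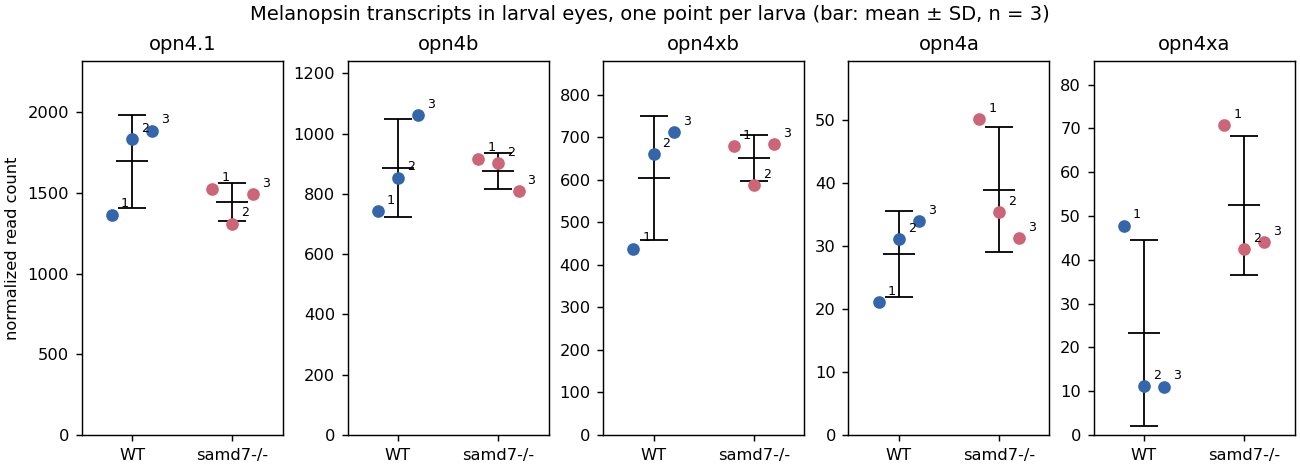
Normalized read count of each melanopsin (y axis, a separate scale from 0 per gene) in WT and samd7-/- larvae; points are single larvae with their replicate number, and bars the mean ± SD of 3. The genotypes overlap in every panel, and WT 1 is the lowest WT larva for opn4.1, opn4b, opn4xb and opn4a but the highest for opn4xa.

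opn4.1, a mammalian-like melanopsin, gave the most reads of the 5 in every larva. It stood at 1367, 1835 and 1887 in WT 1, 2 and 3 and at 1528, 1310 and 1495 in samd7-/- 1, 2 and 3. The mutants lay below WT 2 and WT 3 but on both sides of WT 1. The means were 1696 ± 286 in WT and 1444 ± 117 in samd7-/- (SD, n = 3), a log2 fold change of −0.22 (95% interval −0.57 to 0.13, limma adjusted p = 0.835). That interval runs from 0.676 to 1.09 times the WT level. Without WT 1 the log2 fold change was −0.37 (limma adjusted p = 0.512), and without samd7-/- 2 it was −0.15.

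opn4b, also mammalian-like, followed opn4.1 in reads in every larva, with nearly equal means in the genotypes. WT 1, 2 and 3 held 744, 854 and 1062, and the mutants 917, 902 and 809. The 3 mutants fell inside the WT range. The means were 887 ± 162 and 876 ± 58.7 (SD, n = 3), and the log2 fold change of −0.00 had a 95% interval of −0.36 to 0.35 (limma adjusted p = 0.996), or 0.780 to 1.27 times the WT level. Dropping WT 1 gave −0.12 and dropping samd7-/- 2 gave −0.03. Its sign was not stable and turned positive without WT 3 (0.13) or without samd7-/- 3 (0.05).

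opn4xb, the more abundant Xenopus-like melanopsin in reads, came next in every larva. It stood at 438, 661 and 711 in WT 1, 2 and 3 and at 679, 587 and 685 in the mutants. WT 1 was the lowest of all 6, and the mutants lay within the WT range. The means were 603 ± 145 and 650 ± 54.6 (SD, n = 3), with a log2 fold change of 0.14 (95% interval −0.31 to 0.59, limma adjusted p = 0.914). Without WT 1 the value turned to −0.08, and with samd7-/- 2 dropped it was 0.21.

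opn4a was scarce, with 87 reads over the WT libraries and 118 over the mutants. WT 1, 2 and 3 held 21.0, 31.1 and 33.9, and the mutants 50.1, 35.4 and 31.3. samd7-/- 1 was highest and WT 1 lowest, while samd7-/- 3 lay between WT 2 and WT 3. The log2 fold change was 0.43 (95% interval −0.39 to 1.25, limma adjusted p = 0.853), an interval that reaches from 0.762 to 2.37 times the WT level. samd7-/- 2, the library with hypothalamic transcripts, had the middle mutant value, and without it the log2 fold change was 0.48. Dropping either extreme library, WT 1 or samd7-/- 1, lowered it to 0.23.

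opn4xa showed the widest gap between genotypes and the widest spread within WT. Its values were 47.8, 11.1 and 11.0 in WT 1, 2 and 3 and 70.8, 42.5 and 44.0 in samd7-/- 1, 2 and 3. WT 2 and WT 3 lay below all mutants, but WT 1 lay above 2 of the 3. The means were 23.3 ± 21.2 and 52.4 ± 15.9 (SD, n = 3), with a log2 fold change of 1.44 (SE 0.58, 95% interval 0.10 to 2.77, limma adjusted p = 0.753). In zebrafish larvae opn4xa is known from a set of ganglion cells and from projection neurons of the pineal organ.

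The WT spread of opn4xa exceeded counting error. WT 1 had 50 reads (exact Poisson 95% interval 37.1 to 65.9), WT 2 had 10 (4.80 to 18.4) and WT 3 had 12 (6.20 to 21.0). The mutants had 72 (56.3 to 90.7), 42 (30.3 to 56.8) and 45 (32.8 to 60.2). Reads carry no molecular identifiers, so these intervals cover counting error only. Without WT 1 the log2 fold change was 2.11 (95% interval 1.18 to 3.04, limma adjusted p = 0.197), without WT 2 it was 1.1 (−0.33 to 2.53) and without WT 3 also 1.1 (−0.38 to 2.58). With samd7-/- 2 left out it was 1.56 (−0.03 to 3.16). The adjusted p lay between 0.197 and 0.987 over 16 alternatives.

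**Figure D2:**
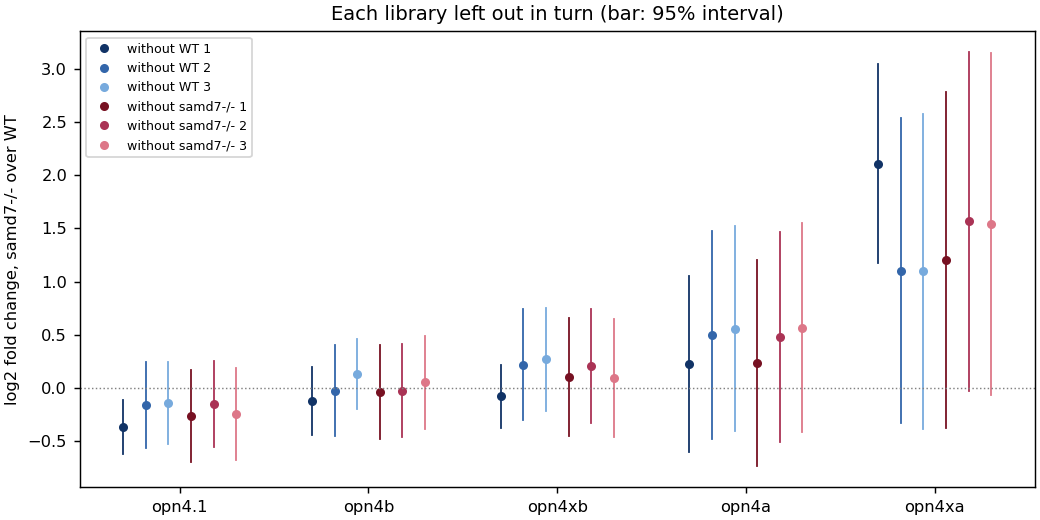
Log2 fold change of each melanopsin (y axis, samd7-/- over WT, bars 95% intervals) with each of the 6 libraries left out in turn (colours). The opn4xa estimate stays above 0 and ranges from 1.1 to 2.11, the last without WT 1, but its interval includes 0 when any other library is dropped. The opn4b and opn4xb estimates cross 0.

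Genes on the pineal marker list moved in both directions. Of the 13 tested genes of that list, 7 had positive and 6 negative log2 fold changes, and parapinopsinb was at 0 to 4.59 in all 6 libraries and bsx at 0 to 3.82 outside samd7-/- 2, where it was 21.2. The genotypes did not overlap for 6 of the 13 (46.2%), beside 13.1% of all tested genes. Of those 6, exorh and otx5 were higher in every mutant, and aanat2, asmt2, tph1a and gngt1 lower. otx5 stood at 6585 to 6947 in WT and 8292 to 9240 in samd7-/- (log2 fold change 0.40, limma adjusted p = 0.484). exorh, the pineal rhodopsin, stood at 154, 75.5 and 128 in WT and at 1542, 610 and 1221 in the mutants. Every mutant lay above every WT larva. The rise was called with all 6 libraries, but the limma call was lost on dropping most single libraries (given with the non-visual opsins). aanat2, a melatonin synthesis gene of pineal and retina, stood at 1571, 1958 and 2345 in WT and 475, 460 and 530 in samd7-/-, and fell (log2 fold change −1.98, limma adjusted p = 0.00332).

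The serotonin and melatonin synthesis genes of the list, chosen after their values were seen, did not move together. tph2 stood at 31.5, 11.1 and 11.9 in WT and 33.4, 36.4 and 19.6 in samd7-/- (log2 fold change 0.79, limma adjusted p = 0.822). tph1a and asmt2 were lower in every mutant than in every WT larva, with log2 fold changes of −0.78 (limma adjusted p = 0.781) and −0.54 (limma adjusted p = 0.708), and asmt had −0.13. The list's summed level ran from 57857 to 77700 in WT and from 44643 to 64307 in the mutants. Most of that sum was irbp, which photoreceptors also express, at 38619 to 55733 in WT and 26974 to 49574 in samd7-/-. The sum therefore does not measure pineal tissue, and the part of these markers in the opn4xa values was not tested.

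Summed melanopsin counts did not separate the genotypes. The sum was 2617, 3392 and 3705 in WT and 3245, 2878 and 3064 in samd7-/-. All mutants lay between WT 1 and WT 2. The mutant mean was 0.946 times the WT mean (exact permutation p = 0.6, 2-sided), where 3 larvae against 3 cannot give a p under 0.1. The difference of means was −176 counts, −487 with WT 1 dropped and −83.9 with samd7-/- 2 dropped, and it changed sign to 57.3 without WT 3.

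Within that sum, the shares of 3 of the 5 melanopsins did not overlap between the genotypes. Of all tested genes, 13.1% did not overlap in their own counts. opn4.1 took 52.2, 54.1 and 50.9% of melanopsin counts in WT and 47.1, 45.5 and 48.8% in samd7-/-. opn4xb took 16.7, 19.5 and 19.2% in WT and 20.9, 20.4 and 22.3% in the mutants. Every mutant thus had a smaller opn4.1 share and a larger opn4xb share than every WT larva. opn4a, at 0.804 to 0.917% in WT and 1.02 to 1.54% in samd7-/-, did not overlap either. The shares of opn4b (25.2 to 28.7% and 26.4 to 31.3%) and opn4xa (0.297 to 1.83% and 1.44 to 2.18%) did. The opn4a shares rest on few reads. Its nearest shares were those of WT 2 (28 reads, exact Poisson 95% interval 18.6 to 40.5) and samd7-/- 3 (32 reads, 21.9 to 45.2). Those intervals overlap, so the opn4a gap was not beyond counting error. The 5 shares add up to the whole, so they are not independent of each other, and no melanopsin's own count separated the genotypes. Each of the 3 shares had an exact permutation p of 0.1, the smallest possible, and 0.167 after Benjamini-Hochberg adjustment over the 5 shares. The difference in means was −5.28 percentage points for opn4.1, −5.37 with WT 1 dropped and −4.48 with samd7-/- 2 dropped. For opn4xb it was 2.76 points, 1.895 and 3.17 in the same order, and for opn4a 0.387, 0.349 and 0.404. The overlapping shares had 1.25, 1.74 and −0.0915 for opn4b and 0.881, 1.385 and 0.992 for opn4xa. Dropping samd7-/- 1 cut the opn4a difference to 0.247 points.

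**Figure D3:**
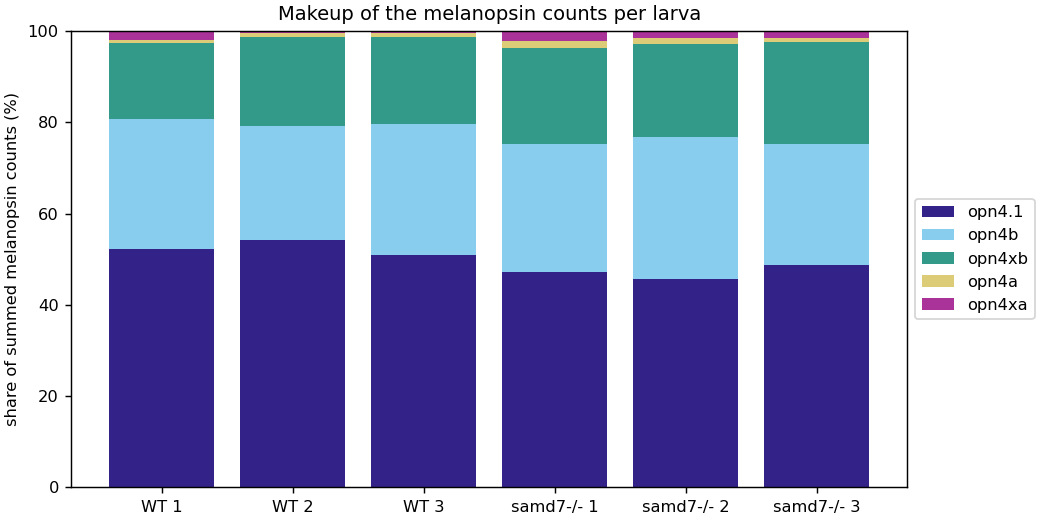
Share of each melanopsin in the summed melanopsin counts (y axis, percent) for each larva (x axis). opn4.1 takes 50.9 to 54.1% in WT and 45.5 to 48.8% in samd7-/-, and opn4xb 16.7 to 19.5% and 20.4 to 22.3%.

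The ratio of opn4xb to opn4.1 was chosen after the values were seen. It was 0.320, 0.360 and 0.377 in WT and 0.445, 0.448 and 0.458 in samd7-/-. The genotypes did not overlap, with means of 0.352 ± 0.029 and 0.450 ± 0.00679 (SD, n = 3). The exact permutation p was 0.1, the smallest possible, which supports nothing given that choice. Counting error of the ratio was not computed, so the small SD of the mutants is not read as a trait. Of the 10 ratios between 2 melanopsins, 3 did not overlap: opn4xb with opn4.1, and opn4a with opn4b and with opn4.1. None fell below an adjusted p of 0.333 over the 10. Of all tested genes, 13.1% did not overlap in their own counts. The 10 ratios reuse the same 5 genes, so they are not separate observations, and those with opn4a rest on few reads. With any 1 library left out the opn4xb to opn4.1 difference lay between 0.0818 and 0.11, 0.0818 without WT 1 and 0.0988 without samd7-/- 2. The Xenopus-like pair, a sum added after the values were seen, took 19.3 ± 0.652% in WT and 22.9 ± 0.958% in the mutants (SD, n = 3). Its exact permutation p was also 0.1. Most of this sum is the opn4xb share, and the opn4xa share by itself overlapped between genotypes. The genes differ in length and no transcript lengths were used here, so counts of different melanopsins do not rank their molecules.

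By counts, opn4.1, opn4b and opn4xb kept that order in all 6 larvae, well above opn4a and opn4xa. The order of the last 2 was not fixed: opn4a was above opn4xa in WT 2 and WT 3 and below it in the other 4 larvae. In CPM (reads scaled by the library's assigned total), opn4.1 ran from 53.6 to 79.1, opn4b from 29.2 to 44.5, opn4xb from 17.2 to 30.2, opn4a from 0.825 to 2.17 and opn4xa from 0.428 to 3.06. The ranges of opn4b and opn4xb overlapped, as did those of opn4a and opn4xa.

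Across larvae, no relation between melanopsins passed, and the sign of most changed when 2 larvae were left out. Those 2 lay farthest from the median of the pair's first gene, in the order opn4a, opn4b, opn4.1, opn4xa, opn4xb. Leaving out larvae by the second gene was not run, so the signs below may depend on that order. The 6 pairs among opn4a, opn4b, opn4.1 and opn4xb all had a positive Pearson r, from 0.17 to 0.73, of which 4 turned negative when those 2 larvae were left out. The pairs with opn4xa had r of 0.17, −0.46, −0.84 and −0.36 with opn4a, opn4b, opn4.1 and opn4xb. With 2 larvae left out by that rule these were all positive, at 0.20, 0.36, 0.65 and 0.30 in the same order. Over 10 pairs and 6 larvae, the strongest relation was between opn4.1 and opn4xa (Pearson r = −0.84, exact permutation p = 0.0736, adjusted p = 0.367; Spearman rho = −0.49, exact permutation p = 0.356, adjusted p = 0.622). It rested on WT 2 and WT 3, since without them r was 0.65. For Pearson's r the smallest adjusted p of the 10 was 0.367. Within WT the coefficient of variation was 16.9% for opn4.1, 18.2% for opn4b, 24.1% for opn4xb, 23.6% for opn4a and 91.0% for opn4xa. In samd7-/- it was 8.11, 6.70, 8.39, 25.4 and 30.4% in the same order.

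The genes most like each melanopsin over the 6 libraries, out of 9402 or 9403 named genes with a mean of at least 50, are given as a description. opn4.1 was followed most closely by ccdc80, efcab7 and ablim3 (r = 0.98, 0.98 and 0.97), and opn4b by rnf146, gcc1 and ercc4 (0.99, 0.99 and 0.98). opn4xb was closest to tmf1, csrnp1b and xpc (0.997, 0.995 and 0.992). Of these, csrnp1b was at 674 in WT 1 and between 1219 and 1862 in the other 5 larvae, the same low WT 1 as opn4xb. opn4a was closest to tmem136a, capn2a and sun1 (0.99, 0.98 and 0.98). opn4xa was closest to parvab, socs7 and pbx1b (0.99, 0.98 and 0.97). For parvab, WT 2 and WT 3 were at 56.7 and 58.7 and the other 4 larvae at 70.8 to 80.6. Points share library depth and scaling, and the 3 genes are the highest of all those compared, so the values of r carry no test.

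The melanopsins were set against the retinal neurons known to make them. Ganglion cell markers summed to 35108, 41720 and 40557 in WT and 43969, 44566 and 44784 in samd7-/-, and amacrine cell markers to 45472, 52271 and 48871 and to 55994, 57509 and 56806. Both sums were higher in every mutant, yet 0 of 25 tested ganglion and 0 of 18 tested amacrine markers passed, beside 0.301% of all genes. Log2 fold changes were positive for 22 of the 25 ganglion markers (median 0.20) and 16 of the 18 amacrine markers (median 0.24). The genotypes did not overlap for 24.0% and 33.3% of them, beside 13.1% of all tested genes. Summed horizontal cell markers (22863 to 24613 over all 6) and bipolar cell markers (66994 to 78367) overlapped between genotypes, with 0 of 14 and 0 of 17 passing, 8 and 14 positive, and 14.3% and 35.3% without overlap. Lens markers went the other way: 25 of 25 log2 fold changes were negative (median −0.54), 0 passed, and 28.0% did not overlap. Counts are relative to the library, and the part of lens RNA in these values was not tested. In whole eyes, more cells of a type and more RNA per cell cannot be told apart.

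Relative to ganglion cell markers, every mutant had fewer melanopsin counts than every WT larva. The ganglion sum holds isl1, which is also on the bipolar list, at 7446 to 8647 counts in each library. Per 1000 ganglion marker counts there were 74.6, 81.3 and 91.4 melanopsin counts in WT and 73.8, 64.6 and 68.4 in samd7-/-. The genotypes did not overlap, by a margin of less than 1 count between WT 1 and samd7-/- 1 (exact permutation p = 0.1, 0.4 adjusted over 4 marker sets chosen after the values were seen). The difference in means was −13.5, −17.4 with WT 1 dropped and −11.3 with samd7-/- 2 dropped. Per 1000 amacrine marker counts the values were 57.6, 64.9 and 75.8 in WT and 58.0, 50.0 and 53.9 in the mutants (exact permutation p = 0.2). The ratios to horizontal (108 to 160 in WT, 120 to 142 in samd7-/-) and bipolar markers (37.3 to 55.0 and 39.1 to 46.1) overlapped.

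Genes tied to photosensitive ganglion cells elsewhere did not pass either. eomesa, whose mouse counterpart these cells need, stood at 445, 508 and 526 in WT and 426, 790 and 536 in samd7-/- (limma adjusted p = 0.885). The high value was in samd7-/- 2, and eomesa is also a brain gene. adcyap1b, encoding the neuropeptide PACAP that these cells release in mammals, stood at 634, 684 and 465 in WT and 613, 761 and 488 in the mutants (limma adjusted p = 0.968). Both were chosen after their values were seen. Of 17 tested genes of light and clock outputs (periods, cryptochromes, early response genes and these neuropeptides), 0 passed, beside 0.301% of all tested genes. Log2 fold changes were positive for 12 and negative for 5, with a median of 0.12. The genotypes did not overlap for 5.88%, beside 13.1% of all tested genes. WT 1 had the lowest per1b (1020 against 1987 to 2717), per2 (2309 against 3296 to 4071) and per3 (147 against 390 to 477). Not every gene of the list was lowest there: junba (2275 against 1838 to 2149) and junbb (2228 against 995 to 1952) were highest.

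Downstream of the receptor, 0 of 29 tested genes of the Gq cascade passed, beside 0.301% of all tested genes. The list held 60 symbols, and 34 genes were found in the table. Symbols not found included plcb1, plcb2, plcb4, plcb4a, plcb4b, trpc6b and itpr1a, so part of the cascade was not tested. Of the 29, 19 log2 fold changes were positive and 10 negative, with a median of 0.11 beside 0.00 for all genes. Non-overlapping genotypes were seen for 5 of 29 (17.2%), beside 13.1% of all tested genes, and 1 of the 5, trpc6a, reached the minimum of 10 in only 1 WT library. Only the 6 of this list with the highest counts were named by rule. Those were rgs3a (log2 0.03), rgs4 (0.06), ric8a (0.06), prkca (0.44), arrb2b (−0.08) and ric8b (0.12), each with a limma adjusted p of 0.78 or more. prkca is also on the bipolar cell list. All cascade values are counts of whole eyes, and what part came from cells with melanopsin was not tested. Other members below were chosen by role after their values were seen.

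**Figure D4:**
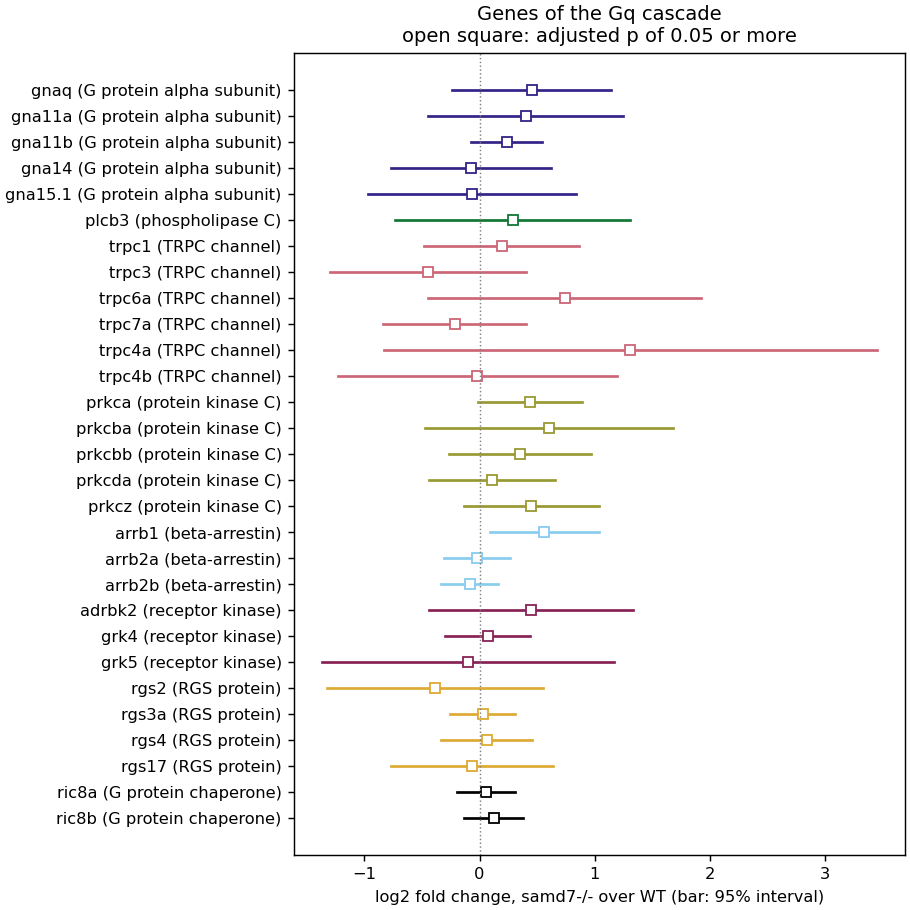
Log2 fold change with its 95% interval (x axis, samd7-/- over WT) for 29 tested genes of the Gq cascade, coloured by role. All are open squares, since none reached an adjusted p under 0.05, and 28 intervals include 0, the exception being arrb1.

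The Gq-class alpha subunits, which pass the signal on from melanopsin, were present at low counts. gna11b led with 442, 490 and 512 in WT and 564, 606 and 529 in samd7-/-. Every mutant lay above every WT larva, with a log2 fold change of 0.24 (95% interval −0.07 to 0.54, limma adjusted p = 0.813). The counts of gnaq (log2 fold change 0.45), gna11a (0.40), gna14 (−0.07) and gna15.1 (−0.07) overlapped between the genotypes. The summed alpha subunits ran from 671 to 770 in WT and from 810 to 879 in the mutants. plcb3, the single phospholipase C beta gene of the list found here, stood at 17.2 to 43.3 and 27.3 to 53.1.

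TRPC channels, which carry the melanopsin current in the mouse, were mostly scarce. Of 9 in the table, 6 passed the filter on low values, 3 with positive and 3 with negative log2 fold changes. trpc7a, the zebrafish copy of a channel that melanopsin opens in the mouse, stood at 62.1, 74.4 and 63.3 in WT and 49.2, 72.8 and 51.8 in samd7-/- (log2 −0.22, limma adjusted p = 0.9). trpc6a, of the other such channel, stood at 8.60, 6.66 and 10.1 in WT and 10.8, 12.1 and 23.5 in the mutants (log2 0.74, limma adjusted p = 0.835). It passed the filter on low values through the mutants, so its gap between genotypes supports nothing. trpc1 had the highest counts of the group, 118, 225 and 267 in WT and 213 to 227 in the mutants.

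No gene that ends the signal passed. Of the 29 tested cascade genes, 1 had an unadjusted limma p under 0.05, arrb1, beside 6.33% of all tested genes. The beta-arrestin arrb1, an adaptor that quiets active receptors, stood at 75.5, 82.2 and 78.9 in WT and 108, 122 and 120 in samd7-/-. All mutants lay above all WT larvae, beside 13.1% of all tested genes without overlap in either direction. The log2 fold change was 0.56 (95% interval 0.09 to 1.03, limma adjusted p = 0.702). The more abundant arrestins arrb2a and arrb2b had log2 fold changes of −0.02 and −0.08. Of the receptor kinases adrbk2, grk4 and grk5 and the RGS proteins, which switch G proteins off, none passed. The 5 protein kinase C genes had log2 fold changes from 0.11 to 0.60 and none passed.

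Among the other non-visual opsins, 1 of 12 tested passed, beside 0.301% of all tested genes: exorh. It rose (log2 3.19, 95% interval 2.33 to 4.05, limma adjusted p = 0.0155), and the lower bound of its interval lay above the upper bound of every melanopsin except opn4xa, a difference that was not tested. With all 6 libraries, edgeR (adjusted p = 0.0175) and DESeq2 (adjusted p = 3.56e-18) called exorh too. Dropping samd7-/- 2 left exorh called (limma adjusted p = 0.00418). Dropping any of the other 5 libraries lost the call: the limma adjusted p was 0.0736, 0.0534 and 0.099 when WT 1, 2 or 3 was dropped, 0.0549 for samd7-/- 1 and 0.069 for samd7-/- 3, while the log2 fold change stayed at 2.89 or above. opn3, an opsin of the brain and other tissues, stood at 615 to 756 in WT and 501 to 663 in samd7-/- (log2 −0.19). The retinal-handling opsins rgra, rgrb and rrh varied widely in both genotypes, rgra from 5541 to 13259 in WT and from 3296 to 21894 in the mutants. Log2 fold changes were −0.24 for rgra, −0.45 for rgrb and −0.48 for rrh. Pigment cell markers varied widely too, summing to 83694 to 245235 over the 6 larvae, while the melanopsin sum ran from 2617 to 3705. The rest were valopa (−0.19), valopb (0.38), tmtops2a (0.18), tmtops2b (−0.23), opn5 (−0.02), zgc:158340, listed by RefSeq as opn6a (0.34), and si:dkey-72l14.7, listed as opn7c (0.72).

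**Figure D5:**
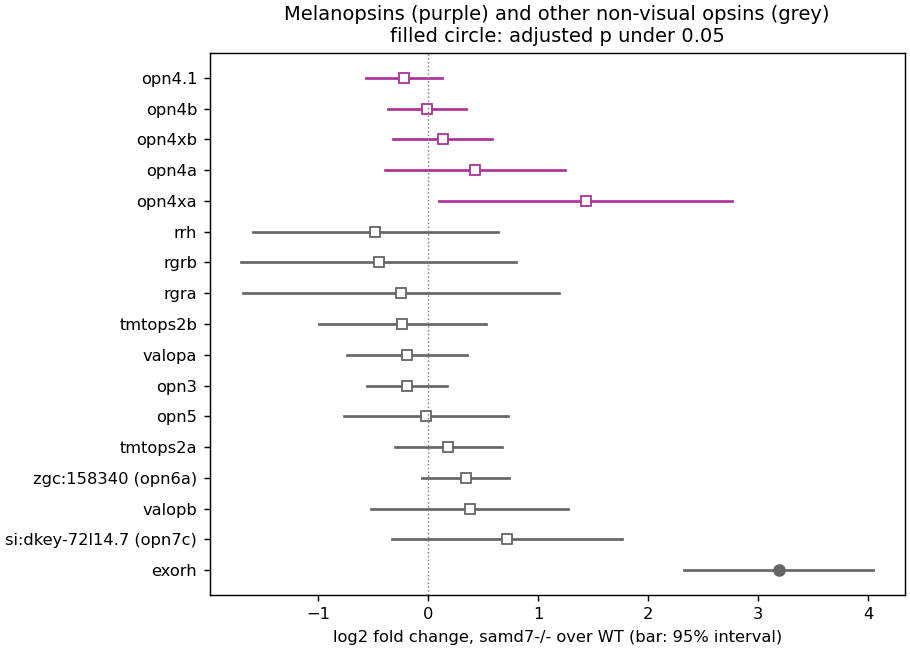
Log2 fold change with its 95% interval (x axis, samd7-/- over WT) for the 5 melanopsins and 12 other tested non-visual opsins. exorh, at 3.19, is the single filled circle with an adjusted p under 0.05.

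The melanopsins were also set against the rhodopsins rho, which fell, and exorh, which rose. Both were chosen with those changes known, so the ratios are a description. Each had an exact permutation p of 0.1, the smallest possible, which supports nothing given that choice. Per 1000 counts of rho, the rod opsin, there were 7.50, 11.7 and 14.5 melanopsin counts in WT and 38.6, 80.0 and 37.7 in samd7-/-. The highest value was in samd7-/- 2, and dropping it cut the difference in means from 40.9 to 26.9, while dropping WT 1 gave 39.0. Per count of exorh there were 17.0, 44.9 and 29.1 in WT and 2.1, 4.72 and 2.51 in the mutants, a difference in means of −27.2, −33.9 with WT 1 dropped and −28.0 with samd7-/- 2 dropped. Called genes were on the rod list (11 of 15 fell) and the cone list (2 of 28 rose and 3 fell). They were also on the pineal list (1 of 13 rose and 2 fell), beside 0.301% of all tested genes. On the pineal list exorh, aanat2 and gngt1 passed, but gngt1 is also a rod marker and is counted on both lists. Over all marker lists 18 genes were called, and dropping a single library left as few as 4 (WT 1), 3 (WT 2), 3 (WT 3), 11 (samd7-/- 1) and 11 (samd7-/- 3). Those that passed were rho, rhol, saga, sagb, gnat1, gngt1, zgc:112320 (listed by RefSeq as pde6ga), grk1a, rom1a, rom1b and nr2e3 of rods and opn1mw1, opn1mw2, arr3a, arr3b and tbx2a of cones. No marker passed in the Muller glia, pigment cell, brain, muscle, surface or lens lists.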

How the data were processed

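Eyes of single 5 dpf larvae went through a SMARTer Ultra Low kit, which does not mark strand, and were read as pairs, per the labels' protocols. The submitters' processing notes name R 4.1.3, DESeq2 1.34.0, HTSeq 0.9.1, STAR 2.7.2b, Trim Galore 0.6.1 and build danRer10; which annotation was counted is not stated. The table deposited by the authors holds a signal, namely reads per gene scaled by the library's size factor. Within 0.001, 100% of values were whole multiples of the value of 1 read, so whole reads were recovered, although for samd7-/- 2 that value, 1.01, is too near 1 for an automatic check. The authors also deposited log2 fold changes and adjusted p-values, per the file headers, used as an alternative only.

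Genotypes were compared with limma-trend (limma 3.58.1, R 4.3.3) on log2(value + 1), 2-sided and without covariates. Genes needed 10 or more in 3 libraries, which left 11959, and Benjamini-Hochberg adjustment ran over all of them (threshold 0.05). The procedure was tested on simulated data whose changed genes had means of at least 50. That test does not cover scarce genes such as opn4a and opn4xa. The added 1 shrinks fold changes of genes near 0, but for opn4xa edgeR and DESeq2 gave smaller ones than limma. edgeR 4.0.16 and DESeq2 1.42.0 on the recovered reads were alternatives, edgeR calling 34 and DESeq2 90 genes against 36. Sums and ratios had exact permutation tests. All pairs of libraries differed beyond sampling noise (chi-square per degree of freedom 42.9 to 190). Members, lists and tests were chosen with earlier results of these data known. Named were every melanopsin, samd7, the 6 most abundant cascade genes, every tested non-visual opsin, the 2 most abundant and all passing markers of each list, and the 3 genes with the highest r; symbols missing from the table were sought through RefSeq synonyms (assembly GRCz12tu). Other named genes were chosen after their values were seen. No sequences were used here.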

Additional observations from a re-analysis of the deposited data

How the results depend on the processing

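Of the 5 melanopsins 0 were called, and of the cascade 0, under each of 17 alternatives (quantile normalization, TMM factors, no filter, a minimum of 50, pseudocounts of 0.5 and 10, robust moderation, a block for the replicate number, libraries left out singly, edgeR, DESeq2 and the authors' deposited table). Log2 fold changes ranged from −0.37 to −0.14 for opn4.1, −0.12 to 0.13 for opn4b, −0.08 to 0.27 for opn4xb, 0.23 to 0.57 for opn4a and 1.1 to 2.11 for opn4xa. A minimum of 50 left opn4a and opn4xa untested. Signs turned for opn4b (0.13 without WT 3, 0.05 without samd7-/- 3; range −0.12 to 0.13), for opn4xb (−0.079 without WT 1), for the summed level (−487 to 57.3 counts with 1 library left out), for the opn4b share (−0.0915 to 2.38 percentage points) and for the ratio to horizontal markers (−22.8 to 3.03). The cause was not tested. Calls over all marker lists, 18, were 12 with robust moderation, 28 with DESeq2, 28 in the authors' deposited table and 3 to 17 with 1 library left out (4, 3 and 3 on dropping WT 1, 2 or 3, and 11 on dropping samd7-/- 1 or 3). The calls of samd7 and aanat2 held under all 17 alternatives, and that of exorh held under 12 and was lost under 5. For exorh, samd7 and aanat2 the alternatives were added after seeing the data. Same-numbered libraries showed no clear shared deviation (r = 0.03, 0.18 and −0.00, beside −0.16 to 0.14 for unlike numbers), so numbers were taken to name samples only. With 3 libraries per genotype this cannot exclude a batch shared by number. With a replicate block opn4xa kept a log2 fold change of 1.44 (limma adjusted p = 0.595). The same block took the limma adjusted p of exorh from 0.0155 to 0.000731. Sums per coding length were not run, since no length was used here. opn4a and opn4xa had 10 to 72 reads a library, and the WT spread of opn4xa was wider than counting error.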
